A study of Mus musculus with 6 samples.

Results

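Regulated exocytosis is the release of stored granules on demand, and 68 genes of its docking and fusion machinery were followed in salivary gland epithelium with and without p63. They are the rows of the deposited table whose symbol names a synaptotagmin, a synaptotagmin-like protein, a syntaxin, a syntaxin binding protein, a VAMP, a SNAP25 family protein, a Rab3 or Rab27 GTPase, an Unc13 protein or a complexin. They were taken by name, out of 23366 gene symbols in all. RNA-seq was done on epithelial cells of the submandibular gland, taken from adult mice 12 weeks old, with 3 p63 knockout libraries and 3 wild-type libraries. The study's title sets out to learn how p63, a transcription factor of basal epithelial cells, keeps progenitor cells of this gland able to divide. The labels do not say in which cells, by which allele or when p63 was removed, nor whether animals were pooled.

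In a secretory cell, a granule is brought to the plasma membrane by Rab3 or Rab27 and their effectors. It is then primed by Unc13 proteins and by syntaxin binding proteins of the Munc18 type. Fusion is driven by SNARE proteins, when a VAMP on the granule zips together with a syntaxin and a SNAP25 family member on the target membrane. Synaptotagmins are best known as the calcium sensors of this step. Acinar cells of salivary glands release saliva proteins in this way, and the granular convoluted tubule, a duct segment of the rodent submandibular gland, releases growth factors and kallikreins.

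Values are TPM, which corrects for gene length and sums to 1000000 in each library. How deeply each library was sequenced is not known, so no counting error could be given. Trp63 itself measured 1.59, 0.816 and 1.76 TPM across knockout libraries 1, 2 and 3, against 3.48, 1.85 and 3.68 TPM across wild-type libraries 1, 2 and 3. Epithelial markers were present in every library, with all 6 of 6 above the low-value filter and Epcam at 128 to 232 TPM. Knockout library 3 stood apart from the other knockouts. Its Trp63 level was close under that of wild-type library 2, and also close to that of knockout library 1. Over all tested genes its log2 values correlated with Pearson's r of 0.896 and 0.893 with knockout libraries 1 and 2, but of 0.951 to 0.963 with the wild-type libraries, a description across genes that are not independent. The library is labelled as a knockout, and no genotyping of it is given here. Its 6 basal and myoepithelial markers, Trp63 among them, summed to 135 TPM. Knockout libraries 1 and 2 held 217 and 117 TPM of them, and wild type 341 to 439 TPM. By these markers knockout library 3 lay with the other knockouts, but over all tested genes it did not. For the genes described, fold changes whose call turned on this library are therefore given with and without it. The library was singled out from these same data. Without it 5127 of all tested genes had an adjusted p under 0.05 (limma), against 44 with all 6 libraries. A call gained without it therefore says little about a single gene.

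Of the 68 genes, 37 reached at least 1 TPM in at least 3 libraries and were tested as part of a fit over all 11268 genes that met this filter. One of them, Syt16, changed, and it was lower in the knockout (limma, Benjamini-Hochberg adjusted p under 0.05). This is 1 of 37 genes, or 2.70%, where 0.39% of all tested genes passed. The groups did not overlap for 13 of the 37 genes (35.1%), against 21.1% of all tested genes. Of these 13, 11 were lower in the knockout (29.7%, against 15.6% of all genes) and 2 were higher (5.41%, against 5.42%). An unadjusted p under 0.05 was reached by 11 of the 37 (29.7%, against 15.4%). The median log2 fold change, taken throughout on the scale of log2(TPM + 1), was -0.07 over the 37 genes and 0.09 over all tested genes. Log2 fold changes were positive for 17 of the genes and negative for 20. On this scale the change of low genes is understated.

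Stretches of 250 bases before the RefSeq start of 3 genes show the promoters of those with the largest differences. They are Syt16, the gene that passed, and, among genes averaging at least 10 TPM whose groups did not overlap, Stxbp5l with the largest negative and Rab3d with the largest positive log2 fold change. All are from build GRCm38.p6 and read 5′ to 3′ on the gene's strand, with capitals on each GC box (GGGCGG or, on the other strand, CCGCCC). The regions are chr12:73997527-73997776 on the plus strand for Syt16, chr16:37384959-37385208 on the minus strand for Stxbp5l and chr9:21918184-21918433 on the minus strand for Rab3d.
Syt16: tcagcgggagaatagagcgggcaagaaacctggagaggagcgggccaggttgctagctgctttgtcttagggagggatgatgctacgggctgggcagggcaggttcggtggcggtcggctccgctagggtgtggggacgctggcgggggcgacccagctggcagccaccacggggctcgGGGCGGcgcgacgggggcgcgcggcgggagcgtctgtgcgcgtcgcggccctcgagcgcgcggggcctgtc
Stxbp5l: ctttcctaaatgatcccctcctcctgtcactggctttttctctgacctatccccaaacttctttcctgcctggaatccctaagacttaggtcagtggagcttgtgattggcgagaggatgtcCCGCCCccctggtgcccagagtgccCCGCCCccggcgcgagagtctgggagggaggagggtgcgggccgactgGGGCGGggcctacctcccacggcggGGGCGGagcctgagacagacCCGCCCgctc
Rab3d: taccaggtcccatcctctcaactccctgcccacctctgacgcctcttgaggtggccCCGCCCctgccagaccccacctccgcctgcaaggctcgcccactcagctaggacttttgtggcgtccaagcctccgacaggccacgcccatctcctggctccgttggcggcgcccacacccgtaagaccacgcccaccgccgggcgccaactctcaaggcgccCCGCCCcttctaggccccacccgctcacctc

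The Syt16 stretch holds 1 GC box and 30 CpG dinucleotides, with a GC content of 72.8%. Stxbp5l holds 5 GC boxes and Rab3d 2. RefSeq promoters were found for 33 of the 37 tested genes, 40 promoters in all, and 47.5% of them hold a GC box in these 250 bases, against 32.7% of all 32851 promoters. The 40 come from genes that met the expression filter, while the 32851 were taken without regard to expression. Their median GC contents were 59.4% and 52.4%, with medians of 14 and 6 CpG dinucleotides. The part of expression and base composition in the GC box shares was not tested. The same windows were searched for the p53 family half-site, the 10-base motif that p63 shares with p53 and p73 and that reads the same on both strands. It lies in 3 of the 40 promoters (7.5%), against 7.13% of all promoters, and in none of the 3 printed above. The 3 matches are shown with up to 10 flanking bases and the half-site in capitals, at chr12:45074493-45074522 (minus strand) for Stxbp6, chr4:133263309-133263337 (minus strand) for Sytl1 and chr1:162570442-162570471 (plus strand) for Vamp4.
Stxbp6: cagcagcactGGGCATGCTCacaggcagcg
Sytl1: caaggccccGAGCTAGCCCtgtaggtgag
Vamp4: tccattgcctGAACATGTCCcctccgccag

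These half-sites begin 29, 241 and 63 bases before the start of Stxbp6, Sytl1 and Vamp4. None of the 3 genes passed the test. A match here is a run of letters, not a measured binding site.

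Syt16, which encodes a synaptotagmin reported to lack the calcium-binding residues of its family, was close to 0 TPM in the knockout. Knockout libraries 1, 2 and 3 held 0.0934, 0.0257 and 0.0579 TPM of it, against 3.81, 6.56 and 6.20 TPM for wild-type libraries 1, 2 and 3. Every knockout library lay far below every wild-type library, knockout library 3 included. The group means were 0.0590 ± 0.0338 and 5.52 ± 1.495 TPM (SD, n = 3 each), a ratio of 0.0107. The log2 fold change was -2.60 (SE 0.22, limma adjusted p = 0.014), and an exact two-sided permutation test gave 0.1, the smallest p that 3 libraries against 3 allow. The call was lost without wild-type library 2 (-2.47, adjusted p = 0.11) and without wild-type library 3 (-2.51, adjusted p = 0.11), fits in which 0 genes of the whole table passed (1024 and 1020 at an unadjusted p under 0.05). It held in the other 14 alternatives planned for this gene in which it was tested, with adjusted p of 0.00036 to 0.048.

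Synaptotagmins were otherwise scarce. Of the 17 in the table, the other one that was tested is Syt3, a calcium-binding member, at 1.82 to 3.94 TPM in the knockout against 1.69 to 2.69 TPM in wild type, with overlapping groups. Syt11, which does not bind calcium and takes part in vesicle trafficking, stayed below the filter at 0.377 to 0.636 TPM in the knockout against 0.820 to 1.52 TPM in wild type. Syt7, a high-affinity calcium sensor of granule and lysosome exocytosis, reached 1.30 TPM in wild-type library 1 and no more than 0.254 TPM in any other library. Syt1, the fast sensor of synapses, stayed at or below 0.262 TPM, and Syt10 was listed at 0 throughout. The summed synaptotagmin level was 4.88 ± 1.70 TPM in the knockout against 10.7 ± 0.578 TPM in wild type (SD, n = 3 each). Syt16 took 51.5% of that sum on average in wild type and 1.24% in the knockout.

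**Figure D1:**
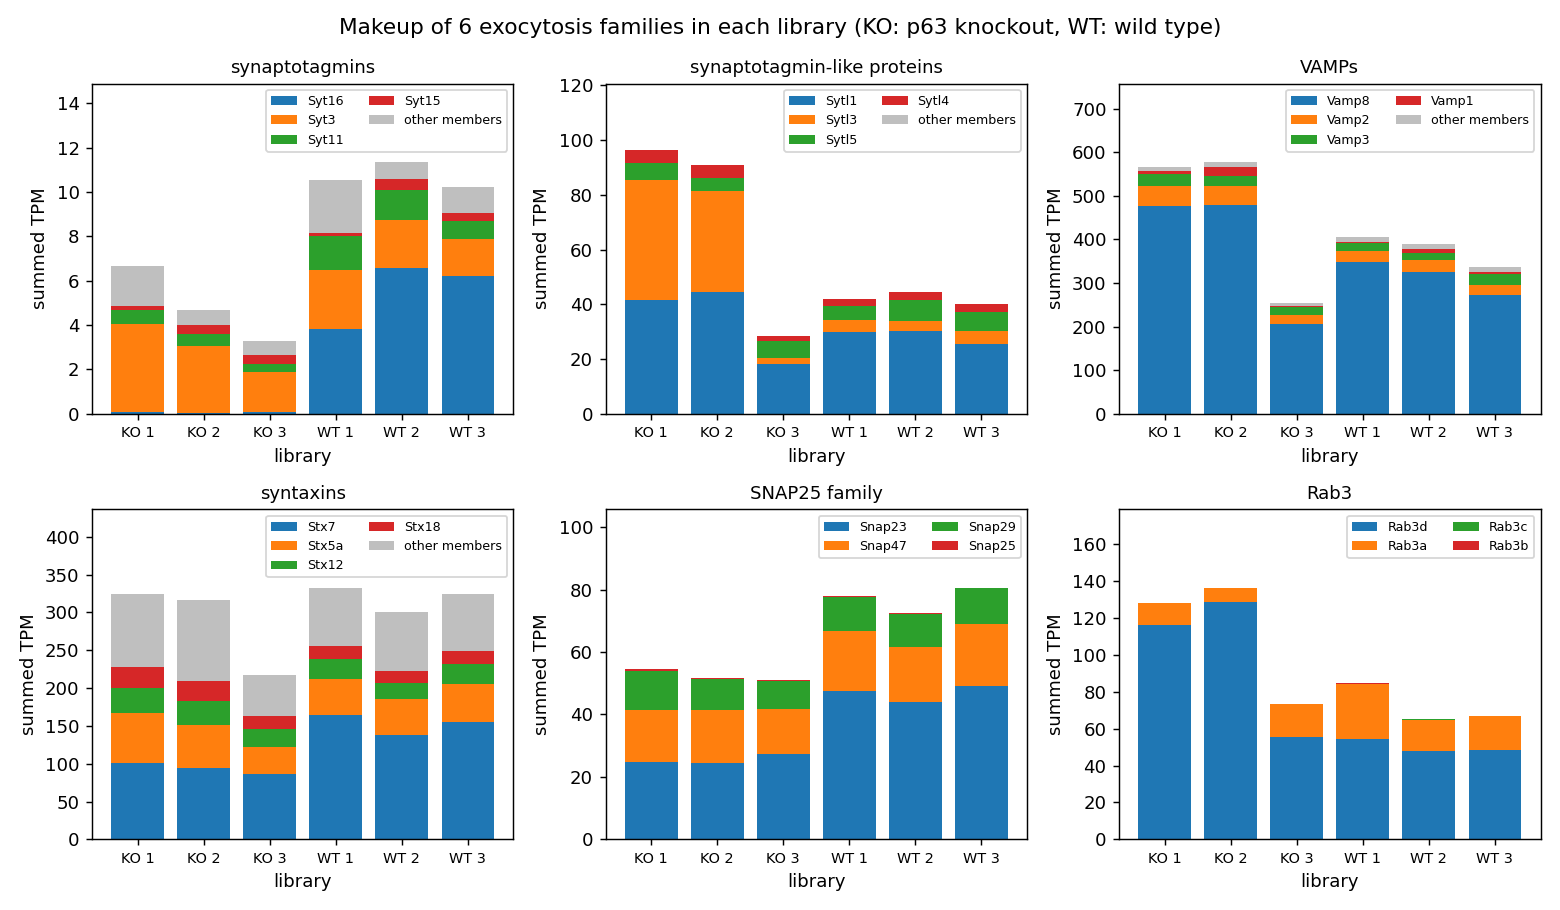
Summed TPM of 6 families in each library (bars, axis from 0), stacked by the 4 most abundant members and the rest. Syt16 (blue, first panel) is nearly missing from all 3 knockout libraries, and Sytl3 (orange, second panel) is large in knockout libraries 1 and 2.

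Synaptotagmin-like proteins bind active Rab27 and tether granules to the membrane. Sytl1 was the most abundant of them, at 41.7, 44.6 and 18.3 TPM in knockout libraries 1, 2 and 3 against 29.7, 30.1 and 25.4 TPM in wild type. Knockout libraries 1 and 2 thus lay above wild type and knockout library 3 below it, and the log2 fold change was 0.19 (SE 0.34, limma adjusted p = 0.77). Without knockout library 3 it was 0.59 (adjusted p = 0.013). Sytl3 showed the same arrangement with the widest spread among the knockout libraries, on the log2 scale, of the 37 genes. It stood at 43.6, 36.7 and 2.11 TPM in the knockout libraries, against 4.39, 3.75 and 4.90 TPM in wild type. Over all libraries Sytl3 had a log2 fold change of 1.70 (SE 0.92, adjusted p = 0.39), against 2.94 (SE 0.16, adjusted p = 0.00020) without knockout library 3. Sytl4, known as granuphilin, ranged from 1.85 to 4.95 TPM in the knockout and from 2.43 to 3.15 TPM in wild type. Sytl5 overlapped between groups, at 4.93 to 6.26 against 5.24 to 7.54 TPM. Sytl2 stayed at or below 0.0708 TPM.

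Rab3 and Rab27 are the small GTPases that mark secretory granules. Rab3d, the Rab3 form of exocrine granules, measured 116, 128 and 55.4 TPM across knockout libraries 1, 2 and 3, against 54.5, 47.7 and 48.3 TPM in wild type. All 3 knockout libraries lay above wild type, but knockout library 3 by under 1 TPM. The log2 fold change was 0.89 (SE 0.32, limma adjusted p = 0.26), and 1.27 without knockout library 3 (SE 0.14, adjusted p = 0.00088). Rab3a, the neuronal and endocrine form, was instead lower in knockout libraries 1 and 2, with 11.8, 7.57 and 17.9 TPM in the knockout against 29.8, 17.2 and 18.7 TPM in wild type. Its groups overlapped through knockout library 3. Rab3a had a log2 fold change of -0.80 (SE 0.35, limma adjusted p = 0.33), and of -1.09 without that library (adjusted p = 0.017). Rab3d thus made up 86.8% of Rab3 TPM on average in the knockout and 70.0% in wild type. Rab3b and Rab3c stayed at or below 0.140 TPM.

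Rab27a measured 30.01, 38.4 and 36.0 TPM in the knockout libraries, against 47.2, 44.0 and 43.6 TPM in wild type. The groups did not overlap, with a small log2 fold change of -0.37 (SE 0.19, adjusted p = 0.38). Its close relative Rab27b overlapped between groups, at 3.65 to 10.5 TPM in the knockout against 8.04 to 12.6 TPM in wild type.

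**Figure D2:**
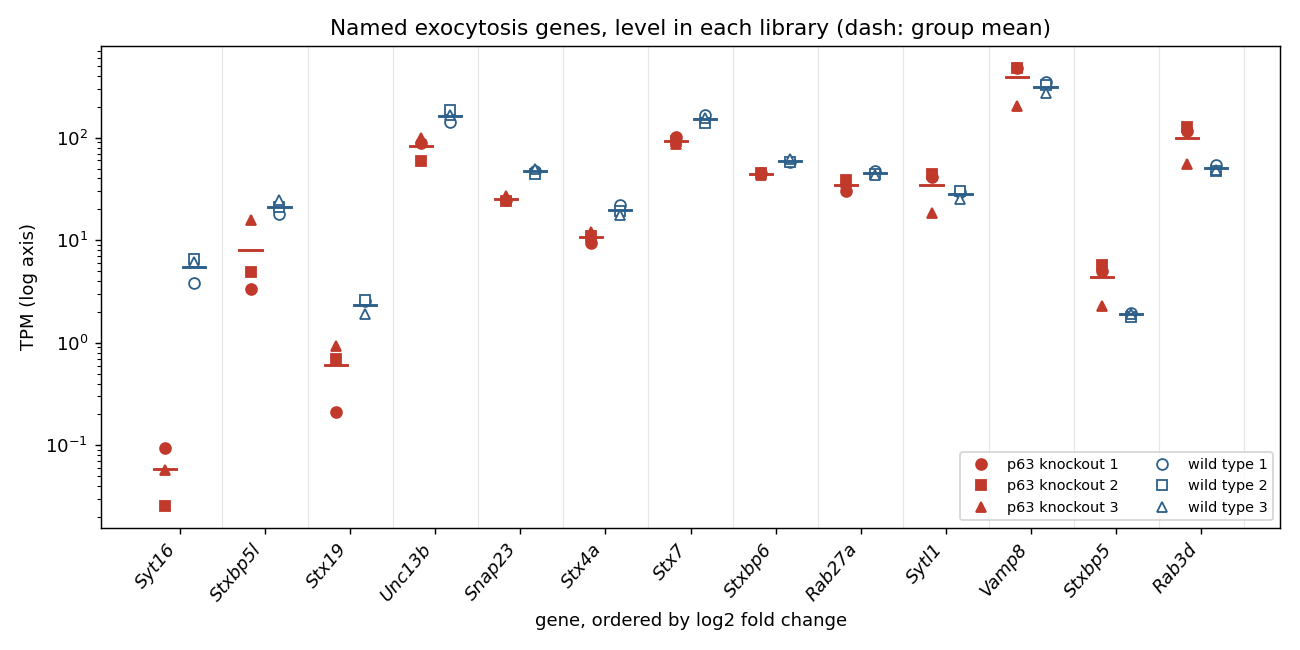
TPM on a log axis for 13 named genes in each library (filled: p63 knockout, open: wild type, dash: group mean, n = 3 each). Syt16 shows the widest gap. Knockout library 3 (filled triangle) is much nearer to wild type than the other knockouts for Stxbp5l, Rab3d and Stxbp5. It is also the nearest, by less, for Snap23, Stx4a, Stx19 and Unc13b.

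Unc13 proteins make docked granules ready for fusion. Unc13b (Munc13-2), the form also found outside the nervous system, was the only abundant one and among the most abundant of all 68 genes. It measured 89.3, 58.6 and 99.5 TPM across knockout libraries 1, 2 and 3, against 141, 185 and 167 TPM in wild type. Every knockout library was lower than every wild-type library, with a ratio of means of 0.502. The log2 fold change of -1.01 (SE 0.25) did not pass over all libraries (limma adjusted p = 0.11) and passed without knockout library 3 (-1.16, adjusted p = 0.0052). Unc13d, which serves granule release in blood cells, stayed at or below 0.574 TPM, and Unc13a and Unc13c at or below 0.103 TPM. The 4 complexins, small clamps of assembled SNAREs, were all below the filter, the highest being Cplx2 at 0.191 to 0.529 TPM.

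Of the syntaxin binding proteins, Stxbp6 (amisyn), which binds SNAREs through a VAMP-like domain, was the most abundant. It stood at 45.5, 45.2 and 43.6 TPM in the knockout against 57.7, 58.6 and 62.3 TPM in wild type. The libraries of each group lay close together and apart from the other group, at a log2 fold change of -0.40 (SE 0.17, limma adjusted p = 0.32). Without knockout library 3 the change was no larger, at -0.38, but its SE was smaller (SE 0.12, adjusted p = 0.040). Stxbp5 and Stxbp5l encode tomosyns, which occupy syntaxins in place of a VAMP and hold back fusion. Their levels differed in opposite directions. Stxbp5l measured 3.32, 4.85 and 15.7 TPM in knockout libraries 1, 2 and 3 and 17.9, 21.2 and 24.6 TPM in wild type. Stxbp5 measured 5.05, 5.74 and 2.30 TPM in the knockout against 1.97, 1.78 and 1.92 TPM in wild type. Stxbp5 was thus the higher of the pair in both knockout libraries 1 and 2, while in the other 4 libraries Stxbp5l was several times higher. Neither passed over all libraries, with log2 fold changes of -1.56 (SE 0.48, adjusted p = 0.20) for Stxbp5l and 0.83 (SE 0.30, adjusted p = 0.25) for Stxbp5. Without knockout library 3 they were -2.14 (adjusted p = 0.00063) and 1.14 (adjusted p = 0.0015).

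The Munc18 proteins chaperone syntaxins at the plasma membrane. Stxbp2 (Munc18-2), the form of epithelial and blood cells, overlapped between groups at 20.1 to 33.9 TPM in the knockout against 25.8 to 31.3 TPM in wild type. Stxbp4, a syntaxin binding protein that is not of the Munc18 type, was below the filter. It stood at 0.209 to 0.315 TPM in the knockout against 0.5001 to 0.623 TPM in wild type.

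Among SNAREs of the plasma membrane, Snap23, the SNAP25 family member of cells outside the nervous system, stood at 24.9, 24.3 and 27.2 TPM in the knockout libraries, against 47.6, 44.0 and 49.1 TPM in wild type. All 3 knockout libraries agree closely and lie well below wild type, with means of 25.5 ± 1.52 and 46.9 ± 2.63 TPM (SD, n = 3 each). The log2 fold change was -0.85 (SE 0.18, limma adjusted p = 0.088). It was -0.90 without knockout library 3 (adjusted p = 0.0020), so this difference was about as large without that library. Its neuronal relative Snap25 stayed at or below 0.596 TPM. Snap47 and Snap29, which act in inner membranes and autophagy, were nearer between groups, at 14.4 to 17.0 against 17.5 to 19.8 TPM and at 9.04 to 12.7 against 10.7 to 11.5 TPM.

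Stx4a (syntaxin 4), a plasma membrane syntaxin, stood at 9.39, 11.0 and 12.1 TPM in the knockout against 22.0, 19.2 and 17.5 TPM in wild type. Stx3, the plasma membrane syntaxin of the apical side, overlapped between groups at 7.78 to 22.2 against 12.2 to 13.7 TPM. Stx4a thus lay apart between groups in every library and Stx3 did not, but the difference between the genes was not tested. The log2 fold change of Stx4a was -0.80 (SE 0.21, adjusted p = 0.14), and -0.87 without knockout library 3 (adjusted p = 0.0046). Stx19, a syntaxin without a transmembrane segment, was low, at 0.213, 0.703 and 0.923 TPM in the knockout against 2.53, 2.59 and 1.92 TPM in wild type. Stx19 had a log2 fold change of -1.07 (SE 0.22, adjusted p = 0.086), and of -1.21 without knockout library 3 (adjusted p = 0.0043). The neuronal syntaxin Stx1a stayed at or below 0.314 TPM, and Stx11, a syntaxin of blood cells, at or below 0.476 TPM.

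Syntaxins of endosomes and the Golgi made up most of the syntaxin TPM. Stx7, of late endosomes and lysosomes, was the most abundant, at 102, 93.8 and 85.9 TPM in the knockout against 165, 139 and 155 TPM in wild type. The groups were apart, with a log2 fold change of -0.70 (SE 0.18, limma adjusted p = 0.13), and of -0.64 without knockout library 3 (adjusted p = 0.010). The other 8 tested syntaxins, Stx5a, Stx12, Stx18, Stx6, Stx16, Stx17, Stx8 and Stx2, overlapped between groups. Stx16, of the trans-Golgi network, measured 23.4, 24.1 and 8.47 TPM in the knockout against 8.71 to 12.8 TPM in wild type. Stx17, which fuses autophagosomes with lysosomes, measured 16.4, 24.1 and 6.81 TPM against 7.83 to 8.001 TPM. Both were high in knockout libraries 1 and 2 and below the wild-type range in knockout library 3. Over all libraries Stx16 and Stx17 had log2 fold changes of 0.58 (adjusted p = 0.47) and 0.76 (adjusted p = 0.39). Without that library these were 1.04 (adjusted p = 0.0043) and 1.23 (adjusted p = 0.0024).

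VAMPs are the granule-side SNAREs, and Vamp8, the main VAMP of exocrine granules and of endosomes, had the highest level of all 68 genes. It measured 478, 480 and 205 TPM across knockout libraries 1, 2 and 3, against 347, 326 and 272 TPM in wild type. The 2 high knockout libraries lay above wild type and the third below it, so the log2 fold change was 0.20 (SE 0.34, limma adjusted p = 0.76). It was 0.61 without knockout library 3 (adjusted p = 0.020), and -0.0017 without knockout library 2. Vamp8 held 80.7% to 85.5% of VAMP TPM in every library, so the makeup of the family was much alike in both groups. Vamp2, a VAMP shared by synapses and exocrine granules, followed at 44.4, 43.6 and 21.0 TPM in the knockout against 23.9 to 25.9 TPM in wild type. Vamp2 had a log2 fold change of 0.45 (SE 0.31, adjusted p = 0.46), and of 0.79 without knockout library 3 (adjusted p = 0.0030). Vamp3, of recycling endosomes, overlapped between groups at 17.8 to 27.8 against 17.8 to 23.9 TPM. Vamp1, Vamp4 and Vamp5 overlapped too, at 2.15 to 19.03 TPM over all libraries, and Vamp7 was listed at 0 throughout.

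TPM is per length, so levels can be set beside each other. In wild type the order ran from Vamp8 at 315 ± 38.8 TPM through Unc13b at 164 ± 21.9 and Stx7 at 153 ± 13.2 to Stxbp6 at 59.5 ± 2.41 TPM (SD, n = 3 each). Unc13b and Stx7 overlapped and cannot be ranked. Next came Rab3d at 50.2 ± 3.74, Stx5a at 48.4 ± 1.76, Snap23 at 46.9 ± 2.63 and Rab27a at 44.96 ± 1.97 TPM, whose libraries overlap from each gene to the next. The synaptic forms Syt1, Snap25, Stx1a, Cplx1 and Unc13a were all under 1 TPM in every library. Rab3a, the neuronal and endocrine form, and Vamp2, shared by synapses and exocrine granules, were not, at 7.57 to 29.8 and 21.0 to 44.4 TPM. Of the 31 genes not tested, 29 were below 1 TPM in every library, and the other 2, Syt7 and Syt11, reached it in at most 2. Markers of neurons summed to 6.07 to 18.6 TPM in the knockout against 5.23 to 8.12 TPM in wild type, with 3 of 11 above the filter and Nefm at 0. The part of neurons in the low levels of Syt1, Snap25, Stx1a, Cplx1 and Unc13a was not tested.

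**Figure D3:**
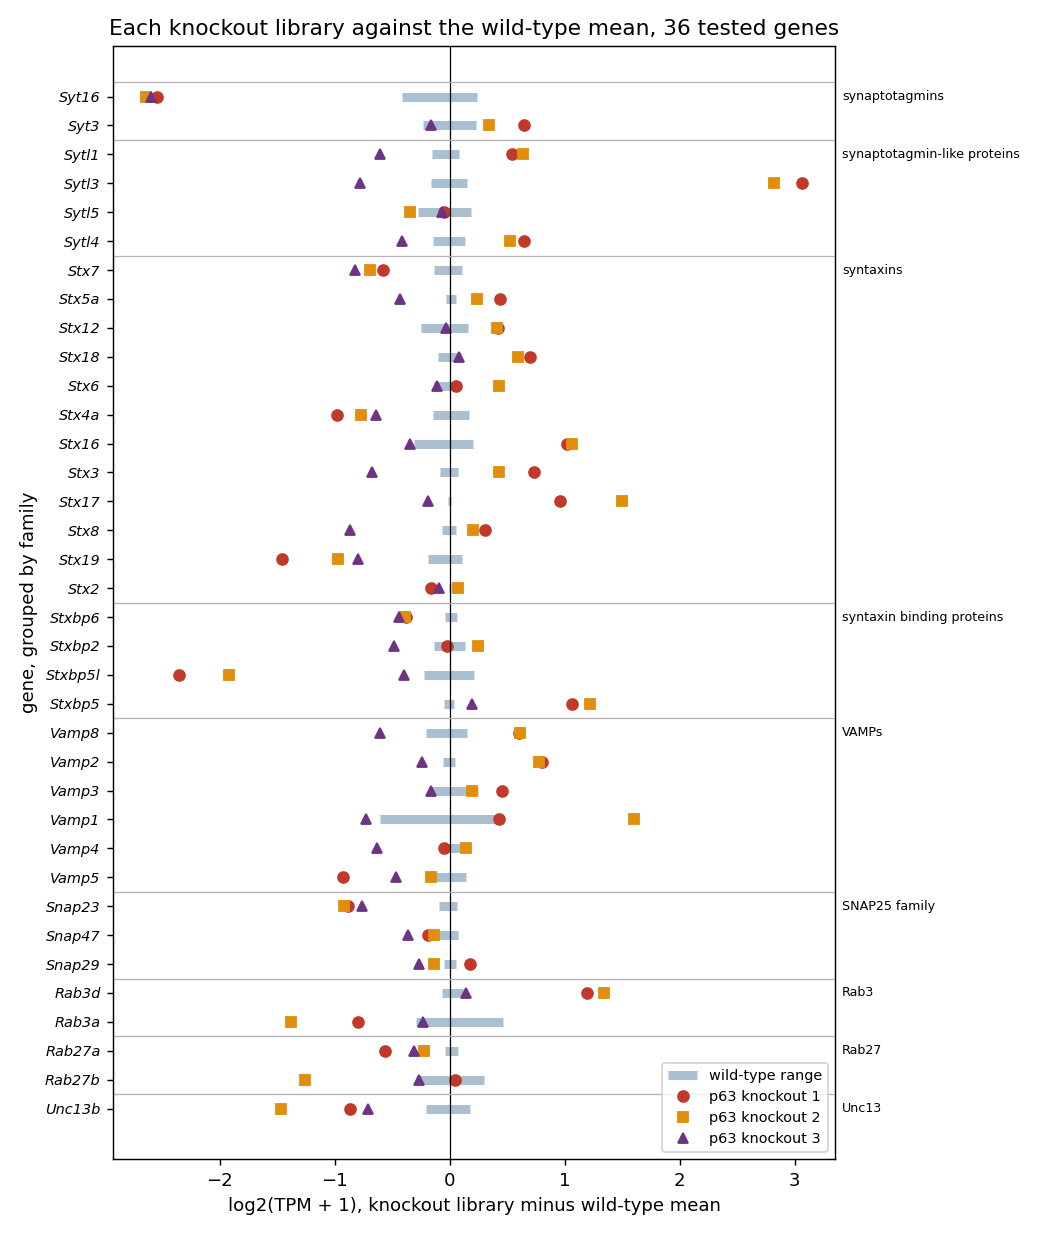
Log2(TPM + 1) of each knockout library minus the wild-type mean for 36 of the 37 tested genes (points), with the range of the 3 wild-type libraries as a blue bar. Knockout library 3 (triangle) lies left of the other knockouts for most genes, while for Syt16, Snap23, Stx7 and Stxbp6 the 3 points fall together.

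The 37 genes thus fell into sets by how the knockout libraries lay. In knockout libraries 1 and 2 alike, 15 genes were above the wild-type range, and 13 of these 15 (86.7%) were not above it in knockout library 3. In 10 of them that library was below wild type. Over all tested genes the corresponding share was 88.5% (4717 of 5328), so the exocytosis genes did as the table did. Genes below the range in knockout libraries 1 and 2 numbered 12, and 1 of these 12 was not below it in knockout library 3, where for all genes the share was 21.1%. In that library 28 of the 37 were below the wild-type range, and 66.9% of all tested genes were. The 50 most abundant genes of each library held 80.3% of TPM in knockout library 3, against 69.2% and 71.0% in knockout libraries 1 and 2. In wild type their share was 73.3% to 75.9%. TPM sums to a fixed total, so a larger share for these genes leaves less for the others. The part of this share in the positions was not tested. The median difference from the wild-type mean was 0.06, 0.20 and -0.41 in knockout libraries 1, 2 and 3 over the 37 genes, and 0.27, 0.24 and -0.29 over all tested genes.

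Without knockout library 3, 21 of the 37 genes passed limma's test, 11 higher and 10 lower in the knockout. Higher calls made up 29.7% of the 37 genes against 33.8% of all tested genes. Lower calls made up 27.0% against 11.7%. Among the higher calls were Sytl4 at 0.59 (adjusted p = 0.022), Stx18 at 0.65 (adjusted p = 0.0081) and Stx3 at 0.58 (adjusted p = 0.018), which over all libraries were at 0.25, 0.46 and 0.16 (adjusted p = 0.67, 0.37 and 0.82). With so large a share of the whole table called, a single pass in that fit says little about the gene. The median log2 fold change was then 0.11 over the 37 genes and 0.26 over all.

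**Figure D4:**
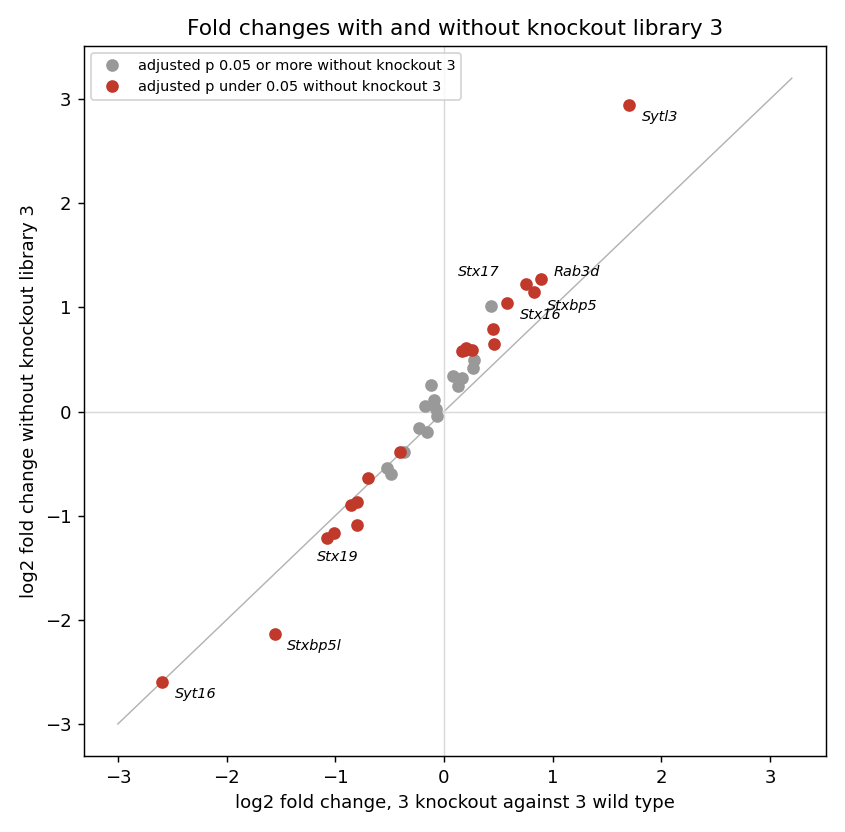
Log2 fold change of 36 of the 37 tested genes over all 6 libraries (x axis) and without knockout library 3 (y axis), with the line of equal values. Genes on the right side lie above the line, Sytl3 most of all, and Syt16 lies on it.

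Summed marker levels of several cell types in the preparation did not overlap between these groups. Granular tubule markers summed to 11594 to 24869 TPM in the knockout against 37903 to 52578 TPM in wild type, with 5 of 6 above the filter and Ren1 at 0. Klk1, a kallikrein on that list, was instead at 6315 to 12563 TPM in the knockout against 4526 to 6390 TPM in wild type, with overlapping groups. Acinar markers summed to 86578 to 144982 and 69779 to 86455 TPM, with 5 of 7 above the filter, so the groups nearly touched. Prol1 alone made up 98.6% to 99.4% of that sum, while Aqp5, Bhlha15, Lpo and Slc12a2 overlapped between groups. Leukocyte markers summed to 103 to 203 TPM in the knockout against 397 to 457 TPM in wild type. Fibroblast markers summed to 124 to 256 and 258 to 328 TPM, so here too the groups nearly touched. Dcn, the largest of the fibroblast markers, overlapped between groups at 107 to 213 against 176 to 223 TPM. Pdgfra overlapped too, while Col1a1, Col3a1 and Lum were lower in every knockout library. Basal and myoepithelial markers summed to 117 to 217 and 341 to 439 TPM. Their part in the lower levels of Syt16, Snap23, Stx7, Unc13b and Stx4a was not tested. In such bulk samples, fewer cells of a type and less RNA per cell cannot be told apart. Markers of other salivary glands summed to 74.9 to 7086 TPM in the knockout against 521 to 11395 TPM in wild type, and were highest in knockout library 1 and wild-type libraries 1 and 2. Their part in these results was not tested.

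Partners of this machinery were read from a list of 60 docking, priming and SNARE genes, among them NSF, its adaptors, the exocyst and Rab effectors. Of 46 tested, 0 passed in limma (5 did at an unadjusted p under 0.05), and the groups did not overlap for 9 (19.6%, near the 21.1% of all tested genes), 3 higher and 6 lower. The median log2 fold change was 0.07, near that of all genes. Doc2b, a calcium-binding priming factor, had the largest change, at 48.3, 24.0 and 1.33 TPM in the knockout libraries, against 3.77, 2.82 and 2.30 TPM in wild type. It was high in knockout libraries 1 and 2 alone, as Sytl3 was, with a log2 fold change of 1.86 (SE 0.99, adjusted p = 0.39). Of 23 tested products that the granules store, 4 fell and 0 rose, where 0.39% of all tested genes passed. The groups did not overlap for 16 (69.6%, against 21.1% of all tested genes), 14 lower and 2 higher. The 4 were Egf and the kallikreins Klk1b16, Klk1b24 and Klk1b27. In each fit that left out 1 wild-type library, 0 of the 23 passed in limma (14 or 15 at an unadjusted p under 0.05). Egf, the growth factor of the tubule, fell by 2.38 on the log2 scale (limma adjusted p = 0.044), from 12336 ± 772 to 2549 ± 1208 TPM (SD, n = 3 each). Egf and Syt16 were thus both lower, while the means of Rab3d and Vamp8 were higher in the knockout and neither passed.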

How the data were processed

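The deposited unit is TPM. Per the labels, the authors divided out both library size and gene length, starting from raw counts. The submitters' processing notes name DESeq2 1.20.0, featureCounts 1.5.1, Bowtie2 2.2.6, TopHat2 2.1.1 and the mm9 build, with no order or role. Annotation, strand setting and depth are not given in the sources used here. Groups follow the genotype label, with replicates numbered in accession order. Whether samples are separate animals is not stated, so p-values speak only for the spread among these libraries.

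Genes that reached 1 TPM in 3 or more libraries entered the test, on log2(TPM + 1) with limma 3.58.1 (trend) in R 4.3.3, two-sided, with Benjamini-Hochberg adjustment over all 11268 genes and a threshold of 0.05. The procedure was tested on simulated data. Genes named with a test were members that passed, members with groups apart and an absolute log2 fold change of at least 0.5, and the most abundant member of each family. By this rule 14 tested members were selected, of which 13 are described and drawn. The remaining one, and some lower members, are counted but not reported here. Cplx2, the most abundant complexin, was not tested. Other members have levels, and where knockout library 3 sets their value, fold changes too, chosen after their values were seen. The members and lists were chosen with earlier results of these data known. Promoters came from RefSeq (GRCm38.p6), matched by symbol, which is not the authors' build and gave no expression value. Alternatives were other pseudocounts, filters, scalings, moderation, array weights, an index block and leaving out libraries. Figures used matplotlib 3.10.9.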

Additional observations from a re-analysis of the deposited data

How the results depend on the processing

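The number of all genes passing was 44, and the number of exocytosis genes passing was 1. With a pseudocount of 0.1 TPM 25 genes passed in all, with no filter 11, with a 5 TPM filter 29, with quantile normalization 72 and with array weights 4822. Leaving out 1 library gave 0 to 5127 genes. Of the exocytosis genes, 0 passed limma's test with the 5 TPM filter (8 at an unadjusted p under 0.05), which removes Syt16, and 20 passed with array weights. Leaving out 1 library gave 0 (without wild-type library 2 or 3, 8 at an unadjusted p under 0.05 in each) to 21 (without knockout library 3). Of the docking list 14 passed with array weights, and 0 to 15 on leaving out 1 library. Of the stored products 2 passed with a pseudocount of 0.1 TPM, with median-of-ratios scaling and without trend, 0 with no filter (16 at an unadjusted p under 0.05) and 14 with array weights. For these, rescaling without the 50 most abundant genes gave 0 (1 at an unadjusted p under 0.05), with only 4 of the 23 left to test, and leaving out 1 library gave 0 to 13. A block for neighbouring index numbers gave 7. The 3 neighbouring pairs correlated at 0.17, 0.23 and 0.08 in their deviations from group means, and 6 of 6 libraries correlated best with their own neighbour, but the labels state no pairing and no shared replicate numbers. Without the 3 libraries richest in markers of other glands, an alternative chosen after seeing the data that leaves 1 wild-type library, assumed to vary as the knockout libraries do, 20 genes passed in all, 1 exocytosis gene and 7 stored products. The median over the 37 genes ranged from -0.22 under quantile normalization to 0.13 with array weights, and was 0.11 without knockout library 3. Log2 fold changes kept their sign for 37 of 37 genes under median-of-ratios scaling and 34 of 37 under quantile normalization. Of the 14 genes selected by rule, Sytl1 (-0.029) and Vamp8 (-0.0017) turned negative without knockout library 2, in ranges up to 0.59 and 0.61 on leaving out 1 library, and 13, all but Rab27a, passed both without knockout library 3 and with array weights. TPM holds no depth, so a level near 0 cannot be given a detection limit.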

Other observations

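Rab27 effectors outside the synaptotagmin-like family were in the docking list too, and 4 of them are given here, chosen after their values were seen. Mlph (melanophilin), which links Rab27a to myosin, measured 128, 104 and 31.1 TPM across knockout libraries 1, 2 and 3, against 52.2, 40.7 and 37.6 TPM in wild type. Myrip, which ties Rab27 granules to actin, stood at 20.8, 20.2 and 5.56 TPM in the knockout, against 7.22, 4.35 and 5.47 TPM in wild type. Both were high in knockout libraries 1 and 2 alone, and neither passed limma's test over all libraries (adjusted p = 0.44 and 0.31). Rph3al (Noc2), which binds Rab3 and Rab27 on exocrine and endocrine granules, was instead lower in every knockout library, at 19.7 to 27.1 TPM against 36.0 to 41.8 TPM. Its log2 fold change of -0.68 (SE 0.21) did not pass (adjusted p = 0.19). Exph5, another Rab27 effector, overlapped between groups, at 3.82 to 10.7 TPM in the knockout against 4.48 to 5.78 TPM in wild type.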
